A study of Mus musculus with 18 samples.

Results

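Silencing of transthyretin (Ttr) by an siRNA was measured here with a scrambled REVERSIR present in both arms, by setting 3 libraries of mouse hepatocytes given siRNA and scrambled REVERSIR against 3 given scrambled REVERSIR alone. These are 6 of the 18 RNA sequencing libraries of the series, chosen by their sample titles and by no measured value. The study set an siRNA against Ttr, a REVERSIR matched to it (TTR REVERSIR) and a scrambled REVERSIR, alone and in combination, beside the vehicle PBS, with 3 libraries in each of 6 groups. The labels describe all of the cells as cryopreserved, plateable hepatocytes of male CD-1 mice from ThermoFisher, so both arms share strain, sex, cell source and the scrambled oligonucleotide. They give no genotype, age, dose, time in culture or order of addition, the scrambled REVERSIR carries only the code R-61, and no label tells whether replicates are separate cultures, animals or vials. The p-values below thus rest on a spread among libraries that may be technical. For the contrast of these 6 it was estimated over the 15 libraries of the 5 groups other than PBS.

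An siRNA is a short RNA duplex of which the guide strand is loaded onto an Argonaute protein and directs cleavage of the mRNA it pairs with. A REVERSIR is an oligonucleotide that pairs with the loaded guide and is meant to stop its silencing, and a scrambled one serves as a control for its sequence. Transthyretin is a plasma protein made mainly by hepatocytes that carries thyroxine and, bound to retinol-binding protein, retinol. With the scrambled oligonucleotide in both arms, the contrast asks what the siRNA does to Ttr and to other transcripts over a control that was also given a REVERSIR.

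The arms differed in depth. Total counts were 10145265, 8707999 and 5381532 in the siRNA + scrambled REVERSIR libraries, against 2557229, 2896366 and 1755819 in the scrambled REVERSIR libraries, a ratio of 3.36 between the means, so depth and treatment cannot be told apart. A gene had at least 1 count for 14824 to 15902 genes per library with siRNA and for 12983 to 13938 without. Albumin (Alb), the main plasma protein made by hepatocytes, was the most abundant transcript on average, with a mean of 4.38% of counts in siRNA + scrambled REVERSIR and 4.17% in scrambled REVERSIR libraries. Spearman correlations of log2 levels between libraries ran from 0.994 to 0.995 within siRNA + scrambled REVERSIR, from 0.979 to 0.985 within scrambled REVERSIR and from 0.985 to 0.991 across the arms. Scrambled REVERSIR replicate 1 stood apart in some transcripts: annotated pseudogenes took 2.09% of its counts, against 0.332% and 0.335% in the other libraries of its group and 0.356% to 0.727% in the siRNA + scrambled REVERSIR libraries. Mitochondrial ribosomal RNA took 2.34% to 9.56% of counts with siRNA and 4.06% to 5.18% without. No library of either group had counts identical to another of its group, with chi-square values per degree of freedom from 2.24 to 41.2 between pairs. No criterion was set there that would tell technical replicates from separate cultures.

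Ttr fell to about 20.3% of its level with scrambled REVERSIR alone. The gene (ENSMUSG00000061808) lies on the plus strand of chromosome 18, from 20823751 to 20832825 in the build NCBIM37. Its mRNA stood at 234.7, 234.1 and 234.9 CPM (counts scaled to the effective library total, so that libraries of unequal depth can be compared) in the 3 siRNA + scrambled REVERSIR libraries, against 1176, 1101 and 1196 CPM in the scrambled REVERSIR libraries. All 3 values with siRNA lie far below all 3 without it, and the 3 libraries with siRNA are almost level. Their mean was 235 ± 0.398 CPM (SD, n = 3), or 20.3% ± 0.0344 of the scrambled REVERSIR mean of 1158 ± 49.7 CPM (SD, n = 3). The counts behind these values were 2265, 2080 and 1303 with siRNA and 2999, 3113 and 2053 without. Counting error alone would give an SD of 4.93 to 6.51 CPM per library with siRNA, more than the 0.398 CPM seen between the libraries, so the 3 libraries lie closer together than their counts can resolve.

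In the model fitted across all genes, Ttr changed by −2.30 ± 0.0882 on the log2 scale (estimate ± SE, 95% interval −2.49 to −2.12), which is 4.93-fold lower (4.35 to 5.60), with an adjusted p of 7.89e-14 by edgeR's quasi-likelihood test with Benjamini-Hochberg adjustment over 11053 genes. An exact two-sided permutation test of the 3 CPM values against 3 gave p = 0.1, the smallest that this design allows. Per length of merged exon, Ttr stood at 192 CPM per kilobase with siRNA and 950 without, which placed it at rank 259 and rank 49 among 11050 genes. The silenced transcript remained above most others: the median gene of the scrambled REVERSIR libraries had 7.20 CPM per kilobase. In a bulk library, fewer cells making Ttr and less Ttr RNA per cell cannot be told apart. The annotation places a predicted gene, Gm16090, across part of the Ttr locus, and no source used here gives the strand of counting, so reads of that gene could be among those counted.

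**Figure D1:**
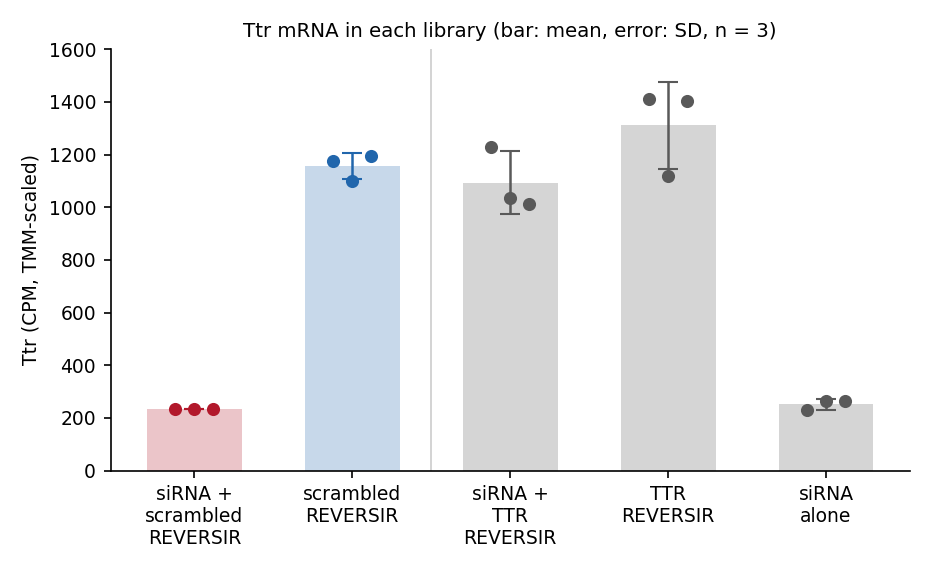
Ttr in CPM (vertical axis, from 0) in each library of 5 groups, with points for libraries, bars for means and error bars for SDs of 3 libraries. The siRNA + scrambled REVERSIR libraries sit at 234.1 to 234.9 CPM and the scrambled REVERSIR libraries at 1101 to 1196 CPM, while the libraries with siRNA and TTR REVERSIR sit at 1014 to 1230 CPM.

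The size of the silencing was then set beside the effect of the same siRNA in the 2 other settings of the study, neither of which shares a library with it. With the matched oligonucleotide in both arms, siRNA + TTR REVERSIR libraries held Ttr at 1230, 1036 and 1014 CPM, against 1412, 1120 and 1403 CPM in TTR REVERSIR libraries. These groups overlap, since 1 siRNA + TTR REVERSIR library lies above the lowest TTR REVERSIR library. The log2 change there was −0.26 ± 0.0831 (95% interval −0.44 to −0.09), which leaves 83.3% of the level, with an adjusted p of 0.678 by edgeR's quasi-likelihood test (unadjusted p = 0.00435 in the same edgeR fit). The difference between these effects, with scrambled minus with TTR REVERSIR, came to a log2 value of −2.04 ± 0.120, with a 95% interval from −2.29 to −1.79 (edgeR adjusted p = 5.42e-10). Silencing with the scrambled REVERSIR was thus 4.11-fold deeper than with the matched one.

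Without any REVERSIR, siRNA libraries stood at 21.8% ± 1.72 of the PBS mean (SD, n = 3), a log2 change of −2.19 ± 0.0938. The difference between the effect with scrambled REVERSIR and that without REVERSIR came to −0.11 ± 0.128 in log2 units, with a 95% interval from −0.37 to 0.15 (edgeR adjusted p = 0.802, fit of 18 libraries). As a ratio of the remaining Ttr this is 92.7%, with an interval from 77.2% to 111%. Differences of either sign within those bounds cannot be told from none. In CPM, the siRNA + scrambled REVERSIR mean of 235 ± 0.398 lay beside 252 ± 20.1 in libraries with siRNA alone (SD, n = 3 each).

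The tested genes next to Ttr on chromosome 18 had estimates near 0. B4galt6, a lactosylceramide synthase gene 10.3 kb away and the nearest tested, had 3.13 ± 0.410 CPM in siRNA + scrambled REVERSIR and 3.06 ± 1.15 CPM in scrambled REVERSIR libraries (SD, n = 3 each), a log2 difference of −0.02 ± 0.337. Dsg2, a desmosomal cadherin, was at −0.04 ± 0.132, the trafficking gene Trappc8 at −0.02 ± 0.0592 and Dsc2, another desmosomal cadherin, at −0.12 ± 0.0654. None of these 4 neighbours passed the threshold.

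Ttr was the only gene past it. Of 11053 genes tested in the fit of 15 libraries, 1 (0.00905%) had an adjusted p under 0.05 by edgeR's quasi-likelihood test, and 0 were higher. A fit of the 6 compared libraries alone called 5 genes. At an unadjusted p under 0.05 there were 767 genes (6.94%), 389 higher and 378 lower, where 553 would be expected if none differed. The 3 values with siRNA lay wholly above or below the 3 without for 1615 genes (14.6%), 780 higher (7.06%) and 835 lower (7.55%). Among all tested genes the median log2 fold change was −0.0013, and the 5th and 95th percentiles were −0.34 and 0.39. A fitted change of 2-fold or more was seen for 74 genes (47 higher, 27 lower), none of them past the threshold except Ttr. Several genes with many counts spread widely among libraries of the same group. Counts assigned to Lars2, a mitochondrial leucyl-tRNA synthetase gene, took 1.13%, 0.971% and 0.295% with siRNA and 0.0101%, 3.79% and 3.60% without. Whether those reads come from its mRNA was not tested.

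The libraries set a limit on what could be missed. The 95% interval of the log2 fold change lay within 2-fold either way for 9773 genes, 88.4% of those tested. That share was 98.8% of the 3638 genes with a mean log2 CPM of 3 to 5 and 99.9% of the 3544 with 5 to 7, but 55.4% of the 2262 with 1 to 3 and 0.467% of the 214 under 1. A change of the size seen for Ttr lies outside all of those intervals, while many transcripts of low level were not measured well enough to say. The number of calls moved with the tool and the libraries used: DESeq2 called 16 genes, 7 of them higher, and edgeR called 16, 13 of them higher, when scrambled REVERSIR replicate 1 was left out, with 7 genes shared by these lists (43.8% of each).

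**Figure D2:**
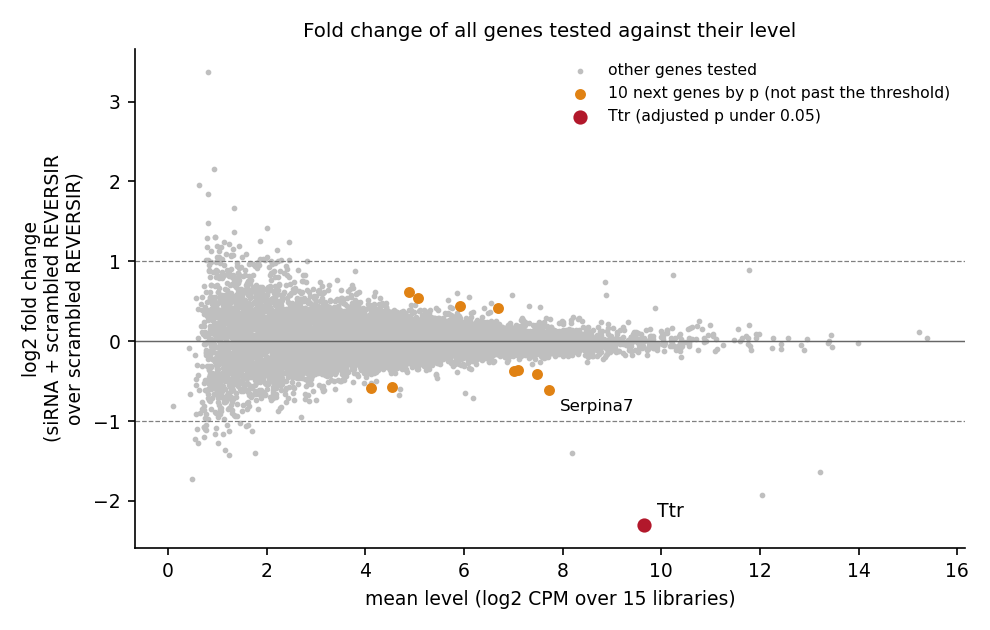
Log2 fold change of siRNA + scrambled REVERSIR over scrambled REVERSIR (vertical axis) against the mean log2 CPM over 15 libraries (horizontal axis) for 11053 genes, with dashed lines at 2-fold. Ttr lies at −2.30, apart from other genes of its level; the points at lower or still higher levels that reach past the dashed lines did not pass the threshold.

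The 10 genes with the smallest p after Ttr are given as values, since none of them passed. They differed by 0.35 to 0.61 in size on the log2 scale, 4 higher and 6 lower, with adjusted p-values from 0.0571 to 0.212 by edgeR's quasi-likelihood test. In all 10 the groups do not overlap, against 14.6% of all genes. A choice by the smallest p favours such groups, so that share is no measure for these 10. Serpina7, which encodes thyroxine-binding globulin, another carrier of thyroxine in plasma, came first. It stood at 169, 175 and 215 CPM in siRNA + scrambled REVERSIR and at 272, 288 and 292 CPM in scrambled REVERSIR libraries. The gap between the highest value with siRNA and the lowest without is wider than the range of either group. The log2 difference was −0.61 ± 0.107 (95% interval −0.84 to −0.39), with an adjusted p of 0.0571 by edgeR's quasi-likelihood test. The call depended on the setting: the adjusted p of Serpina7 ran from 7.33e-14 to 0.503 over 16 alternatives by edgeR, limma or DESeq2, and it passed in 8 of them. The lowest came from edgeR with no filter on low counts, while DESeq2 gave an adjusted p of 0.000594.

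Among the other genes that read lower with siRNA, Vim, which encodes the intermediate filament protein vimentin, had 116, 117 and 124 CPM in siRNA + scrambled REVERSIR and 157, 147 and 158 CPM in scrambled REVERSIR libraries (−0.37 ± 0.0783). Tfrc, the transferrin receptor through which cells take up iron, had 124, 127 and 136 CPM with siRNA and 156, 164 and 175 CPM without (−0.35 ± 0.0783). Aldh1a1, which oxidizes retinal to retinoic acid, had 159, 165 and 180 CPM with siRNA and 206, 237 and 226 CPM without (−0.42 ± 0.0926). In all 3 of these genes every library with siRNA lies below every library without it. Cog5, a subunit of the Golgi tethering complex COG, was at −0.58 ± 0.127 and Acnat2, a peroxisomal acyltransferase gene, at −0.58 ± 0.129; both overlap other annotated genes, so their counts are less certain.

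Of the 4 that read higher, Fbl, which encodes the nucleolar RNA methyltransferase fibrillarin, had 33.3, 28.8 and 33.5 CPM in siRNA + scrambled REVERSIR and 19.2, 21.6 and 21.5 CPM in scrambled REVERSIR libraries (0.61 ± 0.123). H2-Q4, a class I histocompatibility gene with close relatives in its cluster, so that the split of reads among them is uncertain, had 119, 117 and 113 CPM with siRNA and 98.4, 81.7 and 81.5 CPM without (0.41 ± 0.0831). Arf5, a small GTPase of Golgi traffic, that overlaps Gcc1, was at 0.54 ± 0.120 and Slc25a47, a mitochondrial carrier gene of the liver, at 0.44 ± 0.0980. The lowest value with siRNA exceeded the highest without in each of these 4 genes.

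**Figure D3:**
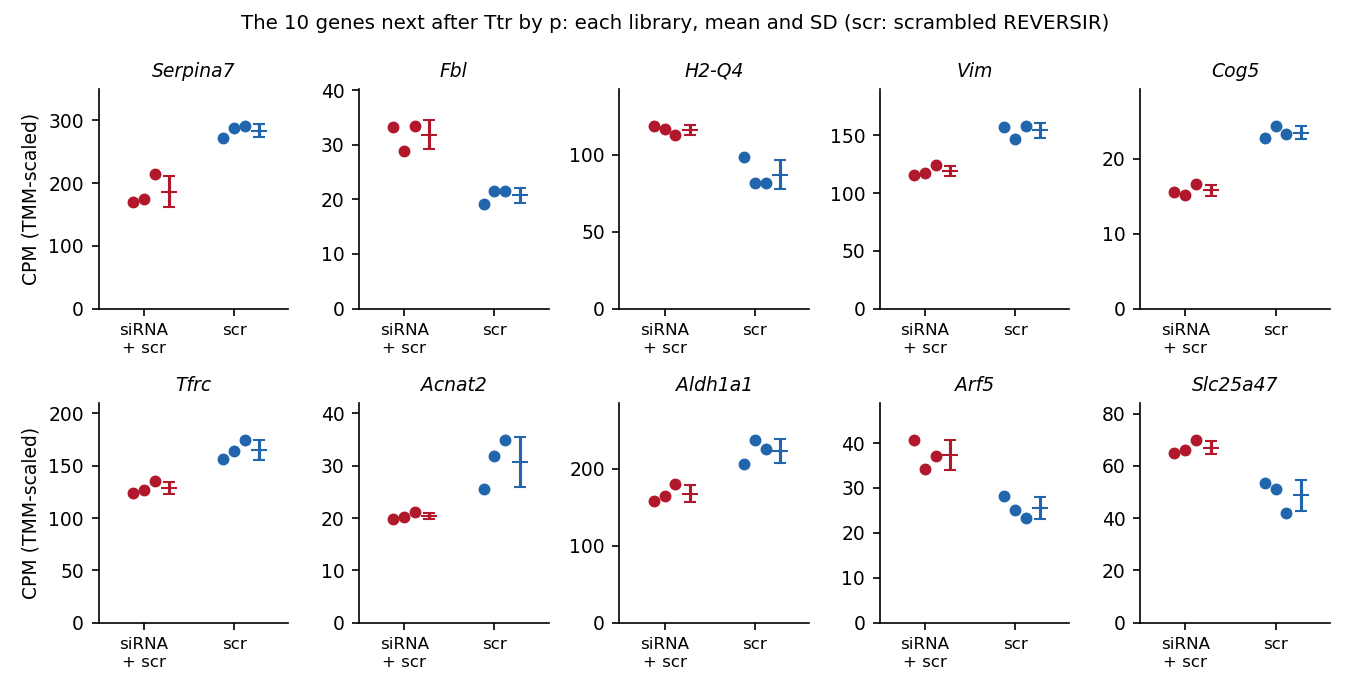
CPM (vertical axis, from 0) of the 10 genes that follow Ttr by p, with 1 point per library and the mean with its SD beside the points, siRNA + scrambled REVERSIR left and scrambled REVERSIR right in each panel. The groups do not overlap in any panel, which a choice by p favours. The mean differences, 0.35 to 0.61 on the log2 scale, are small beside that of Ttr.

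The same genes were read across the 5 groups without PBS. For Serpina7 the means were 186 ± 24.8 CPM in siRNA + scrambled REVERSIR, 240 ± 31.0 in siRNA, 177 ± 18.5 in siRNA + TTR REVERSIR and 182 ± 28.8 in TTR REVERSIR, against 284 ± 10.3 CPM in scrambled REVERSIR libraries (SD, n = 3 each). The group given scrambled REVERSIR alone is the highest of the 5 here, and the siRNA + scrambled REVERSIR group lies near the groups that hold the TTR REVERSIR. In all 10 genes the scrambled REVERSIR mean was the highest (6 genes) or the lowest (4 genes) of the 5 group means, and the siRNA + scrambled REVERSIR mean was outermost in 5. A choice by the difference between these arms favours an outermost mean in either of them: among the 766 genes besides Ttr with an unadjusted p under 0.05, the siRNA + scrambled REVERSIR mean was outermost in 43.1% and the scrambled REVERSIR mean in 96.3%. Over all 11053 genes the siRNA + scrambled REVERSIR mean was outermost in 26.8% and the scrambled REVERSIR mean in 57.2%, and the shares were 24.2% and 57.8% of the 4939 genes at a log2 CPM of 5 or more. The scrambled REVERSIR libraries were also the shallowest on average, at 2403138 counts against 4209320 to 8078270 in the other 4 groups, and the part of depth in these values was not tested beyond thinning all 15 libraries to the shallowest, which gave 2 called genes.

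The same 10 genes were read in the other 2 settings of siRNA. In siRNA + TTR REVERSIR over TTR REVERSIR, 1 of the 10 (Aldh1a1) had the opposite sign and the estimates of all 10 were nearer to 0: Serpina7 was at −0.01 ± 0.107 and Fbl at 0.17 ± 0.102, and 0 of 11053 genes passed the threshold there by edgeR's quasi-likelihood test (598, or 5.41%, at an unadjusted p under 0.05). A choice by p in 1 contrast favours estimates nearer to 0 in another, so their sizes there do not compare the settings. The difference between these 2 siRNA effects passed the threshold in none of the 10. In siRNA over PBS, 7 of the 10 had the opposite sign, among them all 6 that were lower here. Neither count of opposite signs has a share over all genes to set beside it. Of these 7, only Serpina7 passed the threshold over PBS, at 0.41 higher (adjusted p = 0.0407 by edgeR's quasi-likelihood test). The others had adjusted p-values from 0.111 (Acnat2) to 0.816 (Cog5) by the same edgeR test.

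**Figure D4:**
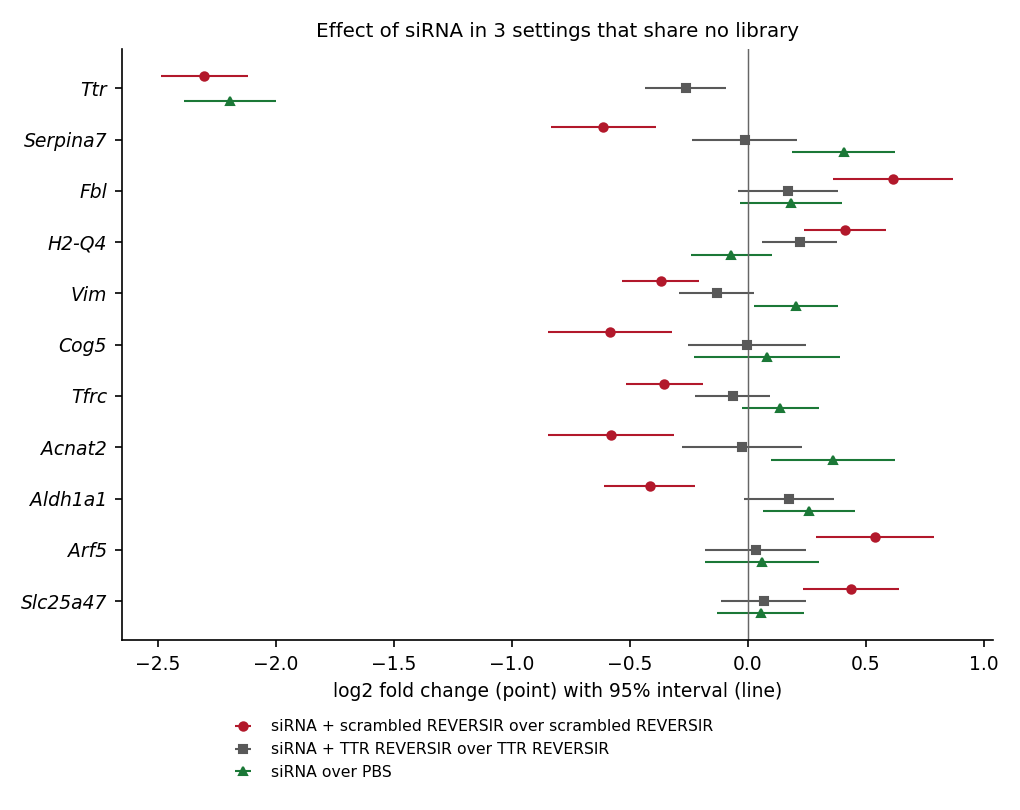
Log2 fold change with its 95% interval (horizontal axis) for Ttr and the 10 genes that follow it by p, in 3 contrasts of siRNA that share no library. Ttr is near −2.30 with scrambled REVERSIR, −0.26 with TTR REVERSIR and −2.19 over PBS, whereas Serpina7 runs from −0.61 with scrambled REVERSIR to 0.41 over PBS.

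The difference between the siRNA effects with scrambled REVERSIR and without REVERSIR passed the threshold for 2 of 11153 genes (0.0179%, 0 of them higher). That count was 41 with DESeq2 and ran from 1 to 381 with 1 library left out, 381 without PBS replicate 3 and 9 without scrambled REVERSIR replicate 1. For Serpina7 it was −1.02 ± 0.150 (adjusted p = 0.00583 by edgeR's quasi-likelihood test). For Tagln2, an actin-binding protein gene of the transgelin family, it was −0.68 ± 0.117 (adjusted p = 0.0325 by the same edgeR test), and its call was lost in 7 of the 12 fits that left out 1 library (edgeR adjusted p up to 0.195). Tagln2 had 231, 213 and 226 CPM in siRNA + scrambled REVERSIR, against 248, 249.8 and 251 CPM in scrambled REVERSIR libraries, and 254, 260.2 and 264 CPM in siRNA, against 168, 159 and 219 CPM in PBS libraries. The lowest of these values are PBS replicates 1 and 2, in which mitochondrial ribosomal RNA took 24.3% and 24.1% of counts. Without both, the difference was −0.94 for Serpina7, near its value with them, and −0.41 for Tagln2; with 1 PBS library left, 0 genes passed the threshold. The difference from the effect with TTR REVERSIR passed for Ttr alone of 11053 genes (0.00905%). Aldh1a1 came next at −0.59 ± 0.131, followed by the ribosomal protein gene Rpl17 at −0.33 ± 0.0729, both with an adjusted p of 0.652 by edgeR's quasi-likelihood test.

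Gene lists fitting hepatocytes and oligonucleotide treatment were then read by counts and medians. Of 554 symbols in 25 lists, 473 belonged to tested genes, and 0 members of any list passed the threshold by edgeR's quasi-likelihood test, while DESeq2 called 7. The counts below at an unadjusted p under 0.05 stand against 6.94% of all genes tested (3.52% higher, 3.42% lower), and list medians against a median of −0.0013 over all genes.

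The partners of Ttr in hormone and retinol handling had 23 tested members with a median of 0.04, of which 1 read higher and 3 lower at an unadjusted p under 0.05. The lower ones included Serpina7 and Aldh1a1, and the higher one was the retinoid X receptor gene Rxrb (0.30 ± 0.122). Rbp4, the retinol-binding protein that travels with transthyretin, had 973, 962 and 825 CPM in siRNA + scrambled REVERSIR and 825, 897 and 922 CPM in scrambled REVERSIR libraries. Those groups overlap, and its log2 difference was 0.06 ± 0.0942 (95% interval −0.13 to 0.26). The retinoid receptor Rxra was at 0.06 ± 0.0919 and the thyroid hormone receptor Thrb at −0.13 ± 0.164.

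Of the RNA interference machinery, no tested transcript stood out. Of 27 tested members, among them the Argonaute, Dicer and GW182 genes, 0 had an unadjusted p under 0.05, the median was 0.01, and the widest values were 0.35 ± 0.175 for Tarbp2, the partner of Dicer, and −0.18 for a deadenylase subunit gene, Cnot6. Uptake and endolysosomal genes had a median of 0.03 over 28 members. The 2 subunits of the asialoglycoprotein receptor, the hepatocyte lectin used to deliver GalNAc-conjugated oligonucleotides, both read higher at an unadjusted p under 0.05, with Asgr1 at 143, 156 and 159 CPM in siRNA + scrambled REVERSIR and 135, 124 and 129 CPM in scrambled REVERSIR libraries (0.24 ± 0.0989) and Asgr2 at 0.22. They also belong to the hepatocyte markers. In both, the mean with scrambled REVERSIR alone was the lowest of the groups without PBS. For Asgr1 it was 129 CPM, against 153 to 159 CPM in the others, and for Asgr2 33.0 CPM, against 36.9 to 40.3 CPM. With TTR REVERSIR in both arms, the siRNA effect was 0.0034 for Asgr1 and 0.11 for Asgr2. In siRNA over PBS, Asgr1 was at 0.28 ± 0.0916 and Asgr2 at 0.06.

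Markers of hepatocytes had a median of 0.11 over 14 members, with 13 positive and 1 negative; 4 read higher and 0 lower at an unadjusted p under 0.05, and in 9 the values with siRNA lay above all values without (against 7.06% of all genes). Apoa1, the main protein of high-density lipoprotein, had 2126, 2131 and 2133 CPM with siRNA and 2044, 1818 and 1669 CPM without (0.21 ± 0.0673), and Tat, tyrosine aminotransferase, was at 0.25 ± 0.0974 (0.17 without scrambled REVERSIR replicate 1 and 0.39 without replicate 2). The 3 libraries with siRNA are close to one another in Apoa1, and the spread lies in the scrambled REVERSIR group. Amino acid breakdown and gluconeogenesis had a median of 0.12 over 30 members, with 6 higher and 2 lower at that level, led by glycine N-methyltransferase (Gnmt, 0.36 ± 0.104) and liver glutaminase (Gls2, 0.30 ± 0.108). For Gnmt and Gls2, too, the scrambled REVERSIR mean was the lowest of the 5 groups without PBS, at 31.5 and 44.7 CPM. Secreted proteins (median 0.02 over 31 members) and liver transcription factors (median 0.06 over 15, with Hnf4a at 0.11 ± 0.0517) lay nearer to 0.

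Sensing of RNA and the interferon response had a median of 0.08 over 31 members, with 3 higher and 0 lower at an unadjusted p under 0.05. These were Bst2, which tethers virus particles at the cell surface (0.24 ± 0.0815), the signal transducer Stat2 (0.18 ± 0.0768) and the ubiquitin-like Isg15 (0.23). Bst2 stood at 223, 205 and 206 CPM in siRNA + scrambled REVERSIR and 175, 196 and 166 CPM in scrambled REVERSIR libraries, groups that do not overlap. The sensors Ddx58 (RIG-I), Ifih1 (MDA5) and Tlr3 read −0.07, 0.07 and 0.02.

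Stress and inflammation lists had medians near 0. Acute phase and inflammation genes had a median of −0.04 over 27 members, with 0 higher and 4 lower at that level: the chemokine genes Cxcl1 (−0.68 ± 0.191) and Ccl2 (−0.33), the interleukin 1 antagonist Il1rn (−0.67 ± 0.251) and the iron-regulating hormone hepcidin (Hamp, −0.28 ± 0.130). Endoplasmic reticulum stress genes had a median of −0.04 over 27 members with 0 higher and 5 lower, which are the chaperone genes Hspa5 (−0.20 ± 0.0599), Dnajc3 (−0.15 ± 0.0544) and Hsp90b1 (−0.16), the disulfide isomerase Pdia4 (−0.13) and the glutathione-degrading Chac1 (−0.41). Hspa5 had 1272, 1353 and 1370 CPM with siRNA and 1458, 1564 and 1557 CPM without, groups that do not overlap. Its means were 1358 CPM in siRNA, 1272 in siRNA + TTR REVERSIR and 1317 in TTR REVERSIR libraries. The group given scrambled REVERSIR alone was thus the highest of the 5 groups without PBS. Without scrambled REVERSIR replicate 2, Cxcl1 was at −0.44 and Hamp at −0.13. The p53 list had a median of 0.01 over 25 members, of which only the cell cycle inhibitor Cdkn1a had an unadjusted p under 0.05 (0.48 ± 0.142). The oxidative stress and heat shock list (median −0.04 over 27) held 4 higher and 1 lower, led by metallothionein 1 (Mt1, 0.41 ± 0.102, and 0.26 without scrambled REVERSIR replicate 3) and the cystine transporter Slc7a11 (−0.38 ± 0.115).

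In metabolism, xenobiotic genes had a median of 0.04 over 28 members, 3 higher and 2 lower at an unadjusted p under 0.05, led by the electron donor of cytochromes P450, Por (0.28 ± 0.0882), and Cyp1a2 (0.28 ± 0.103). Por rested on single libraries, at 0.42 without scrambled REVERSIR replicate 1 and 0.15 without replicate 3. Cholesterol and fatty acid synthesis had a median of 0.04 over 26, with Pnpla3 at −1.11 ± 0.424 on means of only 1.05 and 2.41 CPM with and without siRNA. Fatty acid oxidation (median −0.01 over 22) was led by the peroxisomal thiolase Acaa1b at 0.47 ± 0.184 and Fabp1, the liver fatty acid-binding protein, at 0.23 ± 0.109, and Acaa1b was at 0.16 with counts thinned to the shallowest library. Iron and heme genes (median −0.04 over 25) had 0 higher and 2 lower, Tfrc and Hamp. The 7 tested mRNAs of the mitochondrial genome had a median of −0.12 with 0 at an unadjusted p under 0.05.

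Genes that respond to plating and to culture were mixed. The cytoskeleton list had 1 of 30 members higher (Actg1, cytoplasmic actin, 0.26 ± 0.0833) and 5 lower at an unadjusted p under 0.05, the lower ones being Vim, Tagln2 (−0.16 ± 0.0580), the galectin Lgals1 (−0.73), the calcium-binding S100a6 (−0.28) and tropomyosin 1 (Tpm1, −0.11). Immediate early genes had a median of −0.06 over 20 members, with the AP-1 subunit Jund at 0.61 ± 0.151 and the matricellular Ctgf at −0.28 ± 0.0696. Jund had 64.0, 69.4 and 64.2 CPM with siRNA and 55.3, 45.3 and 24.5 CPM without, and its value was 0.40 without scrambled REVERSIR replicate 3, the lowest library. Of 25 cell cycle genes, 13 were tested, with cyclin D1 (Ccnd1) at −1.17 ± 0.481 on means of 1.14 and 2.73 CPM with and without siRNA.

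Most markers of other liver cells were scarce in both arms. Kupffer cell and macrophage markers summed to 326 to 360 CPM in siRNA + scrambled REVERSIR and 284 to 353 CPM in scrambled REVERSIR libraries, nearly all of it the lysosomal Cd68. The Kupffer cell lectin Clec4f had means of 4.39 CPM with siRNA and 3.34 CPM without, on 103 and 23 counts from arms of unequal depth. Endothelial markers summed to 56.3 to 65.7 CPM with siRNA and 51.4 to 68.3 CPM without, stellate cell and fibroblast markers to 136 to 161 CPM with siRNA and 141 to 162 CPM without, and cholangiocyte markers to 13.9 to 19.5 CPM with siRNA and 16.4 to 18.3 CPM without. Stab2 held the most counts of the endothelial markers in each arm, and Reln the most of the stellate cell and fibroblast markers. The summed ranges overlap in all 4 cell types. Of their 41 markers, 21 were tested and 0 had an unadjusted p under 0.05, with values from −0.97 ± 0.539 for the macrophage receptor Csf1r (−0.50 without scrambled REVERSIR replicate 2) to 0.81 ± 0.488 for the pericyte receptor Pdgfrb. Lymphocyte and blood markers had at most 11 counts each in either arm, and none of the 8 was tested.

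**Figure D5:**
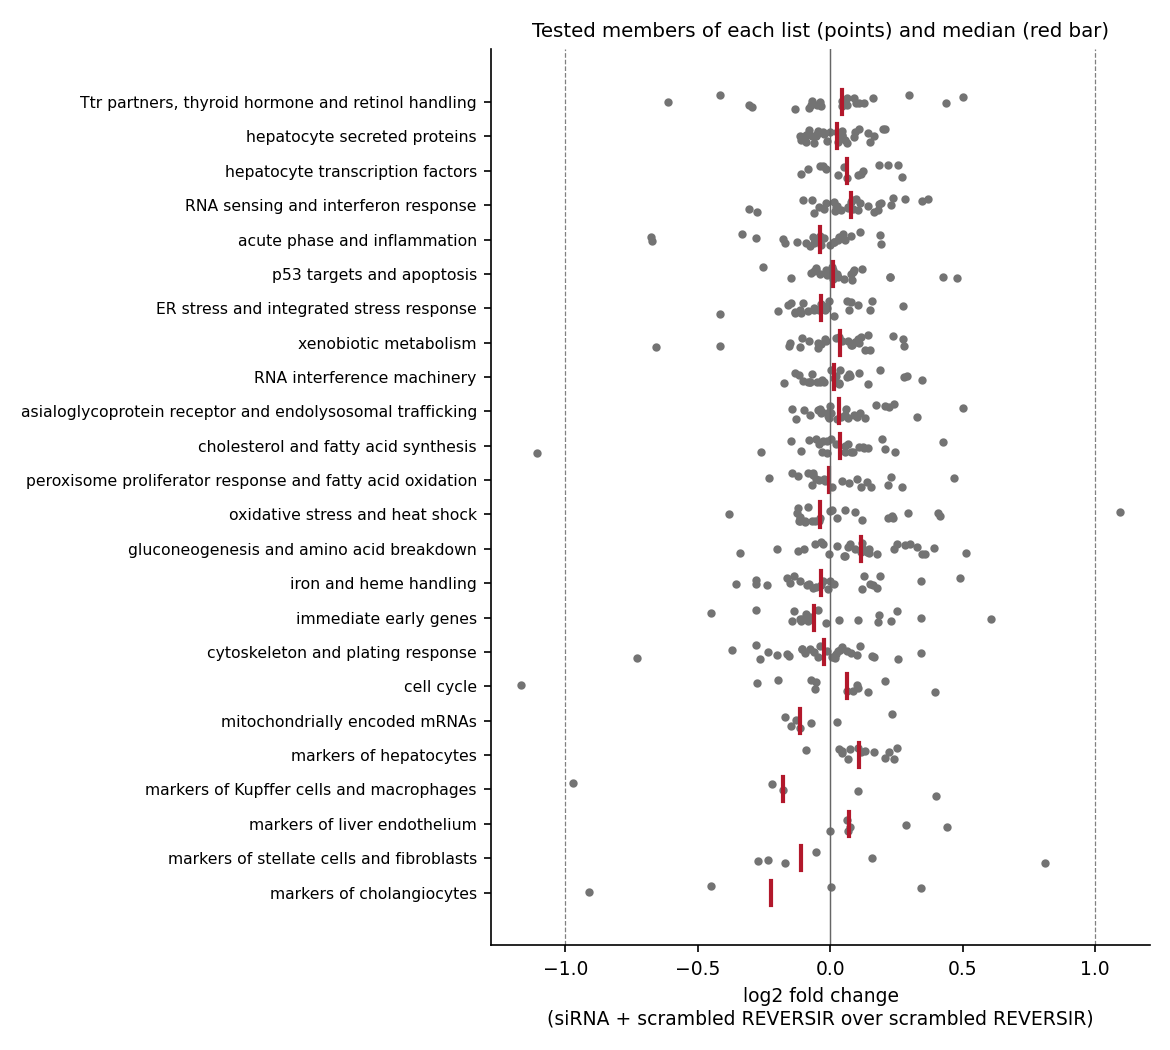
Log2 fold change of siRNA + scrambled REVERSIR over scrambled REVERSIR (horizontal axis) for the tested members of 24 lists, with a red bar at the median and dashed lines at 2-fold. Medians lie within −0.22 and 0.12, and no member passed the threshold; the 25th list, lymphocyte and blood markers, had none tested.

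Genes that passed in siRNA over PBS were read in this contrast, which shares no library with that one. Besides Ttr, 291 genes passed there by edgeR's quasi-likelihood test (2.62% of genes tested, Ttr included), 290 of them were tested here, and 0 of these passed (DESeq2 called 1, Serpina7, lower here and higher over PBS). At an unadjusted p under 0.05 there were 34 (11.7%, against 6.94% of all genes), 19 in the direction seen over PBS and 15 in the other. The sign was shared by 169 (58.3%), with no share over all genes to set beside it. Their median size was 0.41 on the log2 scale over PBS and 0.0858 here, where all tested genes had a median size of 0.107. Those sets were not matched for level. The SD of log2 fold changes was 0.390 at a log2 CPM of 1 to 3 and 0.122 at 5 to 7. Mitochondrial ribosomal RNA took 24.3%, 24.1% and 5.45% of counts in PBS replicates 1, 2 and 3, and its part in the genes called over PBS was not tested. For 282 of the 290 the 95% interval here lay within 2-fold either way.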

How the data were processed

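Total RNA was sequenced from 18 libraries. The deposited files, 1 for each library, hold whole-number counts of reads for 37991 Ensembl genes. STAR, the build NCBIM37 and DESeq2 appear in the submitters' processing notes, without versions. How reads were counted, and on which strand, is not given in the sources used. Tables deposited by the authors, each against PBS, were not used. Groups followed the sample titles; for replicate 2 of siRNA + scrambled REVERSIR, the file name bears a number other than its title. A GENCODE annotation of that build gave positions and the names of 37205 genes.

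Counts of the 15 libraries of the 5 groups other than PBS were fitted together with edgeR 4.0.16 (R 4.3.3; filterByExpr by group, TMM, quasi-likelihood test, group as the only term, 10 residual degrees of freedom), a procedure tested on simulated data. The Benjamini-Hochberg adjustment ran over 11053 genes, with 0.05 as the threshold. Comparisons with PBS used all 18 libraries and 11153 genes, and a CPM there is on the scale of that fit. SEs came from the F statistic, intervals are 95%, and exact permutation tests used scipy 1.17.1. Alternatives were other sets of libraries, RLE or total scaling, no or a stricter filter, DESeq2 1.42.0, limma 3.58.1 voom, thinned counts, a replicate block and leaving out each library.

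The comparison, the gene lists and the tests were chosen with earlier results of these data known. Genes were named by rule: those past the threshold, the 10 next by p, the 2 members of each list with the smallest p, and the leading genes of each difference; some that the rule names are not reported here. Rbp4, Rxra, Thrb, Alb, Lars2, Cnot6, Cd68, the sensors of RNA and further members behind a count of 5 or fewer were chosen after their values were seen.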

Additional observations from a re-analysis of the deposited data

Results flagged for a closer look

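Ttr was singled out because the effect of siRNA on it differed between 2 settings by a test of the difference itself. The effect with scrambled REVERSIR minus that with TTR REVERSIR was −2.04 on the log2 scale, and its adjusted p by edgeR, limma or DESeq2 stayed between 5.39e-90 and 1.01e-08 over 21 alternatives.

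Serpina7 and Tagln2 were singled out because the effect of siRNA differed between the setting with scrambled REVERSIR and that without REVERSIR, again by a test of the difference. That difference was −1.02 for Serpina7 and −0.68 for Tagln2 on the log2 scale. For Serpina7 it remained past the threshold when any 1 library was left out (edgeR adjusted p from 0.000411 to 0.0495), and it was −0.94 with an edgeR adjusted p of 0.585 without PBS replicates 1 and 2 together, which leaves 1 PBS library. For Tagln2 the adjusted p by edgeR ran from 9.14e-06 to 0.195 when 1 library was left out. Mitochondrial ribosomal RNA took 24.3% and 24.1% of the counts of PBS replicates 1 and 2, and its part in these differences was not tested beyond leaving those libraries out.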

How the results depend on the processing

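Ttr was called in all 16 alternatives, with log2 fold changes from −2.34 to −2.28. The number of genes called, 1 as reported, stayed at 1 with RLE scaling, with library totals alone, with a stricter filter and with limma voom. It was 5 in the 6 compared libraries alone (Ttr, Serpina7, Aldh1a1, Vim, Tfrc), 2 with all 18 libraries, 51 with no filter on low counts (36 higher), 16 with DESeq2 and 2 with thinned counts, and 1 to 16 when 1 library was left out. The 16 came without scrambled REVERSIR replicate 1 and a count of 2 without siRNA + scrambled REVERSIR replicate 3. List members called, 0 as reported, were 4, 1, 10, 7 and 1 in those 5 settings, in that order, and 0 to 4 with 1 library left out. Genes also called in siRNA over PBS, 1 as reported, were 2, 2, 5, 2 and 2, and 1 to 3 with 1 library left out. The share of genes with an interval within 2-fold was 55.3% with no filter, which adds genes of low counts. In that unfiltered fit the SE of Lars2 was 0.0654, against 1.02 as reported, so its calls and adjusted p-values need caution.

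The difference from the effect with TTR REVERSIR called 23 genes with no filter and 2 with DESeq2, against 1. The difference from the effect without REVERSIR called 41 with DESeq2, 1 to 381 with 1 library left out (381 without PBS replicate 3, 9 without scrambled REVERSIR replicate 1) and 0 without PBS replicates 1 and 2, against 2. Without those PBS libraries the Ttr difference was 0.021, against −0.11; the 1 remaining PBS library was taken to have the spread of the rest. Leaving out PBS, siRNA or TTR REVERSIR libraries was chosen after seeing the data. With thinned counts Acaa1b was at 0.16, against 0.47, Dnajc3 at −0.075, against −0.15, and Clec4f at 1.12, against 0.40. Col3a1 was at 0.11 with thinned counts, against −0.27. The cause of these shifts was not tested, save that unfiltered and thinned runs differ in the genes and counts they hold.

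Same-numbered libraries of the 2 arms did not deviate together (correlations of −0.0395, 0.0379 and −0.0323). With the replicate number as a block, 2 genes were called (Ttr, Serpina7), 1 list member, 2 also called over PBS, and 4 for the difference from the effect without REVERSIR.

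Depth of the scrambled REVERSIR libraries, 1755819 to 2896366 counts, limits genes under a log2 CPM of 3.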
